A study of Patiria miniata with 6 samples.

Results

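In hatched blastulae of Patiria miniata, the bat star, 80165 loci were counted, and 72 of them carried only names of the actin and microtubule machinery. They were found by name in the authors' deposited table: every name of the locus had to begin as an actin, actinin, tubulin, actin-related protein (Arp), myosin, filamin, tropomyosin, kinesin (Kif), capping protein, cofilin or villin name. The names Pm-Kif3 and Pm-Kif17, motors of transport along cilia, were left out. The 72 loci carried 39 names and lay on 66 scaffolds.

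Morpholino antisense oligonucleotides (MASO) block the use of a chosen transcript. Pools of zygotes that received a 600 µM MASO against the T-box transcription factor Pm-Tbr and were raised to about 36 hours post fertilization (3 libraries) were set against pools given the same dose of a standard control MASO and raised to about 30 hours (3 libraries). All embryos were grown at 15 °C to hatching and sorted for a rhodamine tracer and healthy morphology, so arrested or malformed embryos are not represented. The effects of the older age and of the MASO cannot be told apart. The labels do not tie the 3 libraries of a group to separate spawnings, so p-values measure only the spread between samples, and that spread may be technical. The comparison asks which transcripts differ in level between the Pm-Tbr MASO and control MASO embryos. The Pm-Tbr transcript itself was not analysed here.

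Actin filaments and microtubules give an embryo its shape, move its cargo and divide its cells. Kinesins walk along microtubules or take them apart. Myosins pull on actin filaments. The gamma-tubulin complex starts new microtubules, and the Arp2/3 complex starts actin branches. In a hatching echinoderm blastula the same genes also serve cilia, since its cells each bear a motile cilium, and the cleavage divisions that built the embryo.

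Levels are given as CPM, the count of a locus divided by its scaled library size, which is not per length, so levels of different loci are not compared. Counts assigned to loci were 17795136 to 28167566 in Pm-Tbr MASO libraries and 25423004 to 26958581 in control MASO libraries, and a locus of the 72 had 316 to 86225 counts over the 6 libraries. Between 43.4% and 45.2% of the lines counted per library were reads aligned to several places, which were assigned to no locus. Markers of the labelled stage were present: the hatching enzyme name Pm-He1 averaged 549 ± 161 CPM at 1 locus in Pm-Tbr MASO embryos and 265 ± 209 CPM in control MASO embryos (SD, n = 3 each, as for all means below), and the early transcription factor name Pm-Soxb1 averaged 2127 ± 556 and 3480 ± 527 CPM in the same order of groups. Neither passed the test. Both Pm-He1 loci had positive log2 fold changes, and the other 13 of the 15 loci in the list of stage markers had negative ones, with a median of -0.86 over the list. Of the 15, 0 rose, 3 fell and 12 did not pass. Thus 20.0% were called, against 2.28% of all tested loci and 3.21% of those in the authors' deposited table. The falls were at Pm-Eve (-1.65 on the log2 scale), Pm-Tektin1-2 (-1.20) and Pm-Tektin2 (-1.13). All tektin loci of this list are also in the list of motile cilium markers below. Both tektin falls, and the other tektin loci in the counts that follow, are therefore counted there again. At an unadjusted p under 0.05 there were 11 (73.3%), all lower, against 20.0% of all tested loci and 24.3% of those in the authors' deposited table. In a fit blocked by replicate number 10 were called lower, as were 4.26% of all tested loci. Every tektin locus of the list was among the 10, so these calls are not independent of those in the cilium list. The groups did not overlap at 12 of the 15 loci (80.0%), all lower, against 26.5% of all tested loci, 13.3% lower. The part of this difference in the results below was not tested.

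The name rule took in no actin and no alpha or beta tubulin: 0 of the 72 loci had such a name. The set held 34 kinesin loci, 14 loci of Arp2/3 and other actin-related proteins, 12 myosin heavy chain loci, 5 loci of the gamma-tubulin complex, 6 loci under crosslinking and capping names and 1 locus named Pm-Actbp_limph, which its name calls an actin-binding protein and not an actin. It held no myosin light chain, cofilin or villin name. Pm-Tpmtl_1, counted among the 6, matched the letters for tropomyosin but its name is that of a thiopurine methyltransferase, and Pm-Arp8ph is named for Arp8, which in yeast and mammals is part of a nuclear chromatin remodeler. Names came only with the authors' deposited table, whose loci all exceeded 2 CPM in 3 or more libraries. Of the 72, all passed the filter on low counts, 67 exceeded 2 CPM in all 6 libraries and 0 exceeded it in 1 group alone.

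Most of these genes did not pass the test in embryos injected with Pm-Tbr MASO. Both loci of Pm-Kif24, a kinesin name, fell, by more than 2.5-fold, while the other 70 loci did not pass an adjusted p of 0.05. The call of 2 lower and 0 higher loci (2.78%) by the quasi-likelihood test of edgeR, adjusted over all 44120 tested loci, stands beside 2.28% of all tested loci called, 1.36% higher and 0.922% lower. Among the 27630 loci of the authors' deposited table, from which all names come, the same test called 3.21%. At an unadjusted p under 0.05 there were 22 of the 72 loci (30.6%), 7 higher and 15 lower, against 20.0% of all tested loci, 10.6% higher and 9.46% lower, and 24.3% of those in the authors' deposited table. The groups did not overlap at 25 loci (34.7%), 9 higher and 16 lower, against 26.5% of all tested loci (13.3% in each direction) and 30.8% of those in the authors' deposited table. The median log2 fold change was -0.15 over the 72 loci, 0.011 over all tested loci and -0.0285 over those of the authors' deposited table.

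Libraries of the same replicate number deviated together, and with the number as a block 11 loci were called, 4 higher and 7 lower, where 10.1% of all tested loci were called, 5.83% higher and 4.26% lower. Of the 27630 loci in the authors' deposited table, the fit with the block called 1925 higher and 1708 lower. The 7 lower loci were both of Pm-Kif24, the 3 of Pm-Kif4 and 2 of Pm-Myo19L. The 4 higher loci were Pm-Kif1a_1, 2 of Pm-Kif1BL3 and Pm-Actbp_limph. DESeq2 called 11 loci too, 3 higher and 8 lower, of which 10 were among those 11, where it called 9.71% of all loci it tested, 5.55% higher and 4.16% lower. The edgeR exact test called 8, 1 higher and 7 lower, where it called 7.69% of all loci, 4.62% higher and 3.08% lower. The authors' deposited table, which called 9.27% of its loci (5.5% higher and 3.77% lower) where its false discovery rate was under 0.05, called 6 of the 72 loci, 1 higher and 5 lower, and all 6 were also called with the block.

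**Figure D1:**
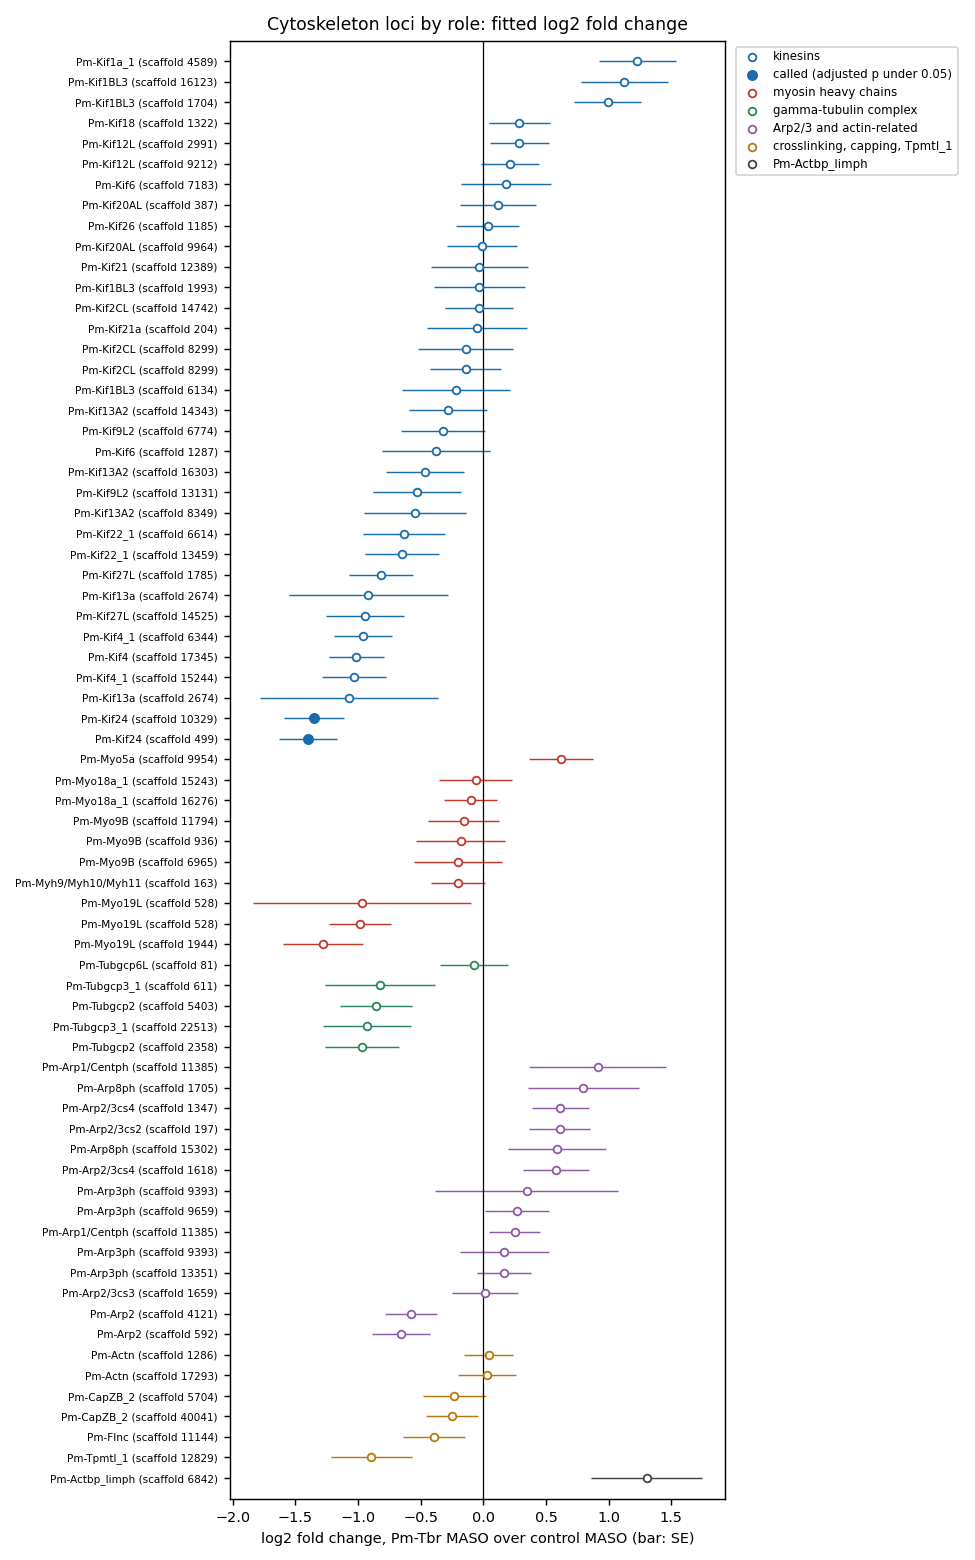
Fitted log2 fold change, Pm-Tbr MASO over control MASO, for 70 of the 72 loci on the horizontal axis, with 1 row per locus ordered by role and value and bars for the standard error. Filled points mark the 2 called loci, both named Pm-Kif24, and the values run from -1.40 at Pm-Kif24 to 1.30 at Pm-Actbp_limph.

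Kinesins gave the only calls: of 34 loci, 2 fell, 0 rose and 32 did not pass, 25 values were negative and 9 positive, and the median log2 fold change was -0.25. The 2 calls, both of 1 name, were 5.88%, beside 2.28% of all tested loci and 3.21% of those in the authors' deposited table. At an unadjusted p under 0.05 there were 10 (29.4%), 3 higher and 7 lower, against 20.0% and 24.3%. The groups did not overlap at 11 (32.4%), 3 higher and 8 lower, against 26.5% and 30.8%. Pm-Kif24 had the lowest 2 values of the 72 loci. In human cells Kif24 removes tubulin from centriolar microtubules and holds back the growth of a cilium. At the locus on scaffold 499 (bases 1 to 18388, plus strand) the CPM was 11.9, 16.3 and 17.1 in Pm-Tbr MASO replicates 1 to 3 and 43.1, 38.2 and 38.2 in control MASO replicates 1 to 3. At the locus on scaffold 10329 (7481 to 26602, plus strand) it was 6.76, 8.16 and 9.28 in Pm-Tbr MASO libraries and 21.9, 20.4 and 19.5 in control MASO libraries. Every Pm-Tbr MASO library lay well under every control MASO library at both loci, with no overlap. The fitted log2 fold changes were -1.40 ± 0.23 (SE, adjusted p = 0.0319) and -1.35 ± 0.24 (adjusted p = 0.0348), that is 2.64-fold and 2.55-fold lower. The log2 ratios between libraries of the same number were -1.81, -1.20 and -1.14 at the first locus and -1.63, -1.27 and -1.03 at the second, so each pair pointed down. Leaving out any 1 of the 6 libraries kept the fold changes between -1.50 and -1.25 but ended both calls, with adjusted p from 0.0579 to 0.115 at the first locus and from 0.0605 to 0.134 at the second. Positions are those of the authors' scaffolds (build not given in the sources used here).

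Pm-Kif4 was the next kinesin by p. Kif4 is a motor of chromosomes and of the spindle midzone, which it keeps short together with Prc1. The locus on scaffold 17345 (1485 to 29933, minus strand), which joins 2 gene models of that name, had 14.1, 13.3 and 11.9 CPM in Pm-Tbr MASO libraries, against 28.0, 23.9 and 27.4 CPM in control MASO libraries. The Pm-Kif4_1 locus on scaffold 6344 had 17.4, 22.9 and 15.5 CPM in Pm-Tbr MASO libraries, against 37.4, 36.1 and 35.1 CPM in control MASO libraries. The one on scaffold 15244 had 4.43, 4.51 and 4.64 CPM in Pm-Tbr MASO libraries, against 9.36, 9.66 and 8.82 CPM in control MASO libraries. All 3 loci showed about the same ratio, with no overlap between groups. Their log2 fold changes were -1.01 ± 0.22, -0.96 ± 0.23 and -1.03 ± 0.25, which missed the threshold (adjusted p = 0.0553, 0.0720 and 0.0745) and passed it with the block (adjusted p = 0.0272, 0.0313 and 0.0373). They also passed by DESeq2 (adjusted p = 0.0020, 0.0072 and 0.0063) and by the edgeR exact test (adjusted p = 0.0147, 0.0275 and 0.0411).

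Other kinesins of cell division did not pass and had values of either sign. Pm-Kif22_1, named for a chromosome-arm motor, did not pass at its 2 loci, with log2 fold changes of -0.63 ± 0.33 and -0.65 ± 0.29 (adjusted p = 0.329 and 0.263). At the locus on scaffold 6614 it had 12.8, 18.4 and 9.89 CPM in Pm-Tbr MASO libraries and 14.5, 26.2 and 23.3 CPM in control MASO libraries, which overlap. On scaffold 13459 it had 7.06, 6.79 and 7.21 CPM in Pm-Tbr MASO libraries and 8.02, 10.6 and 14.5 CPM in control MASO libraries. The groups did not overlap there, and every pair of same-numbered libraries pointed down at both loci. Pm-Kif18, named for a motor that trims the plus ends of spindle microtubules, had 152, 92.7 and 98.2 CPM in Pm-Tbr MASO libraries and 97.8, 88.7 and 94.3 CPM in control MASO libraries. Pm-Tbr MASO replicate 1 alone stood above the others there, and the log2 fold change was 0.29 ± 0.24 (adjusted p = 0.561). Pm-Kif20AL, a name of the motor that brings the chromosomal passenger proteins to the midzone, averaged 22.4 ± 4.44 CPM in Pm-Tbr MASO embryos and 22.6 ± 5.61 CPM in control MASO embryos at the locus on scaffold 9964, with a log2 fold change of -0.01 ± 0.28 there and 0.12 ± 0.30 at its other locus. Pm-Kif2CL, a name of the microtubule depolymerase of centromeres, lay between -0.14 and -0.03 at 3 loci. None of these passed, with or without the block.

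Among 59 loci of a list of spindle and cytokinesis genes (searched by kinetochore, Aurora and Polo kinase, chromosomal passenger and midzone names), 0 were called by the quasi-likelihood test of edgeR, against 11 at an unadjusted p under 0.05 (18.6%, beside 20.0% of all tested loci), 10 of them lower. DESeq2 called 3, the edgeR exact test 1 and the fit with the block 2, where they called 9.71%, 7.69% and 10.1% of all loci. The groups did not overlap at 15 loci, 1 higher and 14 lower. This was 25.4% of the list, beside 26.5% of all tested loci, 13.3% in each direction. The list's median log2 fold change was -0.11, and its summed level was 2064 to 2147 CPM in Pm-Tbr MASO libraries and 2528 to 2891 CPM in control MASO libraries. Pm-Prc1L, a name of the partner of Kif4 in the midzone, had log2 fold changes of -0.68 ± 0.20 and -0.57 ± 0.19 (adjusted p = 0.112 and 0.149). The part of this difference in the values of Pm-Kif4 was not tested.

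Kinesins with names known from cilia had negative or mixed values. Pm-Kif27L, named for a motor that in mice serves the assembly of motile cilia, had 11.2, 12.7 and 11.1 CPM in Pm-Tbr MASO libraries and 20.5, 25.0 and 16.1 CPM in control MASO libraries at the locus on scaffold 1785. At the locus on scaffold 14525 it had 7.82, 10.6 and 8.89 CPM in Pm-Tbr MASO libraries and 16.0, 24.2 and 12.4 CPM in control MASO libraries. The groups did not overlap at either locus, but control MASO libraries spread widely. The log2 fold changes were -0.82 ± 0.25 and -0.94 ± 0.31, and neither passed (adjusted p = 0.127 and 0.143; with the block 0.0582 and 0.0535).

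Pm-Kif9L2, a name of the kinesin-9 family that moves on axonemes, spread widely among control MASO libraries and less among Pm-Tbr MASO libraries. On scaffold 6774 it had 62.9, 85.5 and 102 CPM in Pm-Tbr MASO replicates 1 to 3 and 152, 94.8 and 66.5 CPM in control MASO replicates 1 to 3. Its other locus, on scaffold 13131, had 19.6, 23.7 and 26.1 CPM in Pm-Tbr MASO libraries and 49.4, 32.4 and 18.6 CPM in control MASO libraries. The pairs therefore disagreed in sign, with log2 ratios of -1.26, -0.15 and 0.61 at the first locus and -1.31, -0.44 and 0.48 at the second. The fitted values were -0.32 ± 0.33 and -0.53 ± 0.35 (adjusted p = 0.644 and 0.448). Pm-Kif6, of the same family, was at -0.38 and 0.18 at its 2 loci, and neither passed.

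Of 122 loci in a list of motile cilium markers (searched by tektin, radial spoke, axonemal dynein, intraflagellar transport and BBS names), 5 fell, 0 rose and 117 did not pass. Thus 4.1% were called, against 2.28% of all tested loci and 3.21% of those in the authors' deposited table. The falls at Pm-Tektin1-2 and Pm-Tektin2 are those already counted in the list of stage markers, and the other tektin loci of that list are counted here again too. With the block 20 were called, all lower, where 10.1% of all tested loci were called, 4.26% lower. The groups did not overlap at 62 loci (50.8%, against 26.5% of all tested loci), 12 higher and 50 lower, and 57 loci (46.7%, against 20.0%) lay under an unadjusted p of 0.05, 9 higher and 48 lower. Among loci of the authors' deposited table these shares were 30.8% and 24.3%. The summed level of the 122 loci was 6640 to 7936 CPM in Pm-Tbr MASO libraries and 9531 to 11530 CPM in control MASO libraries, which do not overlap, and their median log2 fold change was -0.57. Each of the 5 calls ended when any 1 library was left out. Fewer ciliated cells and less RNA per cell cannot be told apart in pooled embryos, and the part of this difference in the values of Pm-Kif24 and Pm-Kif27L was not tested.

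**Figure D2:**
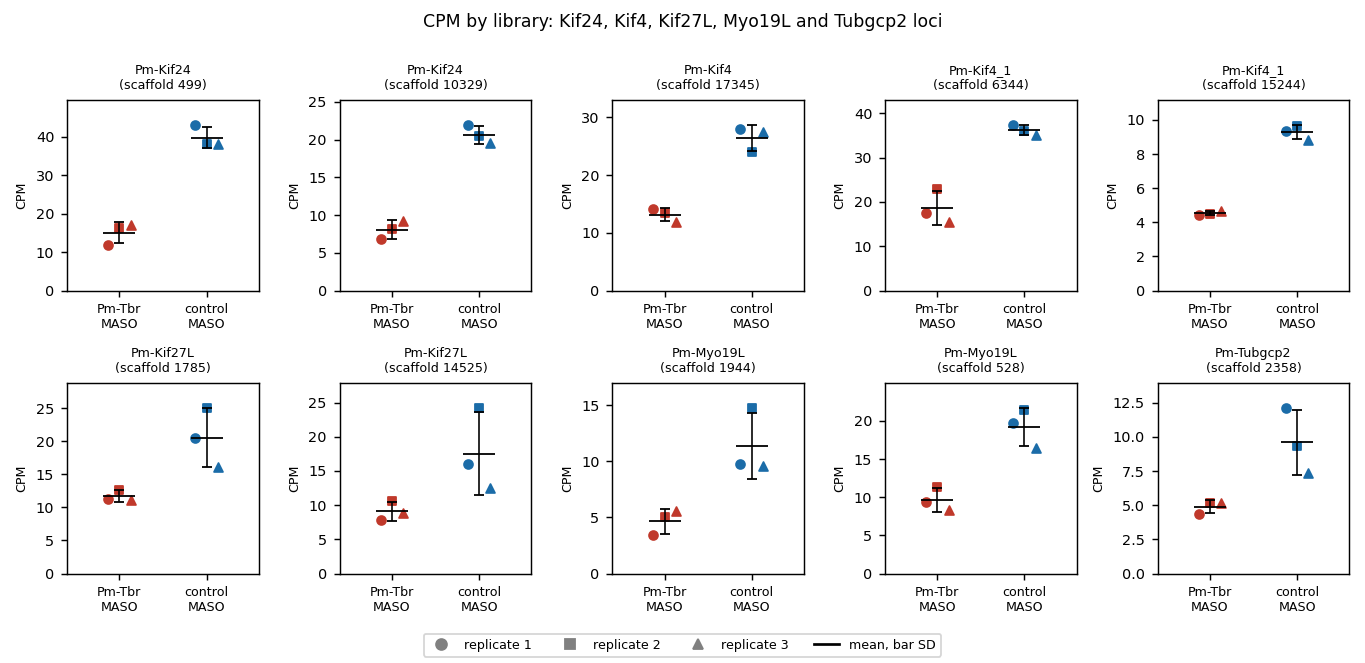
CPM (vertical axes, from 0) of both Pm-Kif24 loci, the 3 Pm-Kif4 loci, both Pm-Kif27L loci, 2 Pm-Myo19L loci and 1 Pm-Tubgcp2 locus in each Pm-Tbr MASO library (left in each panel) and control MASO library (right). Marker shapes give the replicate number, the horizontal line is the mean and the bar the SD of 3 libraries. At all 10 loci every Pm-Tbr MASO library lies under every control MASO library.

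The highest kinesin values belonged to names of the kinesin-3 family, motors that carry vesicles along microtubules and that are best known from axons. Pm-Kif1a_1, on scaffold 4589 from 53 to 10746, had 20.5, 23.7 and 14.0 CPM in Pm-Tbr MASO libraries and 8.74, 9.99 and 6.12 CPM in control MASO libraries. Pm-Kif1BL3 on scaffold 1704 had 7.99, 8.99 and 8.50 CPM in Pm-Tbr MASO libraries and 4.60, 4.52 and 3.69 CPM in control MASO libraries. Pm-Kif1BL3 on scaffold 16123 had 6.07, 7.25 and 4.42 CPM in Pm-Tbr MASO libraries and 2.76, 3.34 and 2.03 CPM in control MASO libraries. At these 3 loci all Pm-Tbr MASO libraries lay above all control MASO libraries. At Pm-Kif1a_1 and on scaffold 16123 replicate 3 was the lowest library and replicate 2 the highest in both groups. The log2 fold changes of 1.23 ± 0.31, 0.99 ± 0.27 and 1.13 ± 0.35 missed the threshold (adjusted p = 0.0771, 0.0945 and 0.127) and passed it with the block (adjusted p = 0.0159, 0.0465 and 0.0403). All passed by DESeq2 (adjusted p = 0.0076, 0.0154 and 0.0440). By the edgeR exact test only Pm-Kif1a_1 passed (adjusted p = 0.0187, 0.0642 and 0.0928).

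The same name did not have the same value everywhere. Pm-Kif1BL3 on scaffold 1993 had 6.36, 8.66 and 4.08 CPM in Pm-Tbr MASO libraries and 6.44, 8.26 and 4.89 CPM in control MASO libraries, at -0.03 ± 0.36 on the log2 scale, and the one on scaffold 6134 was at -0.22 ± 0.43. The 4 loci of this name lie on 4 scaffolds in 4 gene models and span 1.34 on the log2 scale, the widest range of any name here; the difference between loci was not tested. Pm-Kif13A2 and Pm-Kif13a, names of a kinesin-3 branch that moves endosomes, had only negative values, from -0.55 to -0.29 at 3 loci and -1.07 and -0.92 at 2 neighbouring loci of 1 gene model. The first of these 2 had 3.50, 6.72 and 5.87 CPM in Pm-Tbr MASO libraries and 2.46, 23.9 and 7.51 CPM in control MASO libraries. The second had 3.32, 5.82 and 4.30 CPM in Pm-Tbr MASO libraries and 2.80, 17.6 and 5.05 CPM in control MASO libraries, so that control MASO replicate 2 stood alone at both. None of these loci passed with or without the block.

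The remaining kinesins were within the spread between libraries. Pm-Kif26, named for a kinesin that binds microtubules without walking, had 280, 271 and 195 CPM in Pm-Tbr MASO libraries and 290, 258 and 181 CPM in control MASO libraries, and replicate 3 was the lowest library in both groups (log2 fold change 0.03 ± 0.25). Pm-Kif21a and the joined name Pm-Kif21 and Pm-Kif21a, named for kinesins that pause microtubule growth, were at -0.05 ± 0.40 and -0.03 ± 0.38. The first had 22.7, 16.8 and 17.4 CPM in Pm-Tbr MASO libraries and 33.1, 13.3 and 12.6 CPM in control MASO libraries, and control MASO replicate 1 was the highest library at both. Pm-Kif12L was at 0.21 ± 0.23 and 0.29 ± 0.24.

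No myosin locus was called by the quasi-likelihood test of edgeR. Of the 12 loci, 2 had positive values and the median log2 fold change was -0.19, with 0 calls against 3 loci at an unadjusted p under 0.05 and 2 calls each with the block, by DESeq2 and by the edgeR exact test. These 3 were 25.0% of the myosin loci, beside 20.0% of all tested loci and 24.3% of those in the authors' deposited table. The block, DESeq2 and the exact test called 10.1%, 9.71% and 7.69% of all loci. Pm-Myo19L, a name of the myosin that sits on mitochondria, had the lowest values. On scaffold 528 from 27095 to 39463 it had 9.33, 11.4 and 8.27 CPM in Pm-Tbr MASO libraries and 19.7, 21.4 and 16.5 CPM in control MASO libraries. On scaffold 1944 from 161 to 12643 it had 3.44, 5.01 and 5.59 CPM in Pm-Tbr MASO libraries and 9.74, 14.8 and 9.62 CPM in control MASO libraries. Both loci kept the groups apart, with log2 fold changes of -0.99 ± 0.25 and -1.28 ± 0.32 that missed the threshold (adjusted p = 0.0794 and 0.0788) and passed it with the block (adjusted p = 0.0289 and 0.0281). One more short locus of the name, in the same gene model as the one on scaffold 528, had 4.20, 1.97 and 0.503 CPM in Pm-Tbr MASO libraries and 7.75, 4.48 and 0.795 CPM in control MASO libraries. It moved with the replicate number, replicate 1 being highest and replicate 3 lowest in both groups, and at -0.97 ± 0.87 it did not pass.

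Pm-Myh9/Myh10/Myh11, the heavy chain name of the myosin II that contracts the cell cortex and the cleavage ring, had 525, 471 and 692 CPM in Pm-Tbr MASO libraries and 632, 604 and 708 CPM in control MASO libraries. The groups overlap, replicate 3 was the highest in both, and the log2 fold change was -0.20 ± 0.22 (adjusted p = 0.655). The joined name also covers a muscle form of myosin II, and whether muscle cells contributed to this level was not tested. Of the muscle markers searched by name (troponins, titin, nebulin, ryanodine receptor, MyoD and Mef2 among them), 3 loci were found. Their summed levels were 9.70 to 15.9 CPM in Pm-Tbr MASO libraries and 15.3 to 20.1 CPM in control MASO libraries. None of the 3 was called by edgeR's quasi-likelihood test (1 at an unadjusted p under 0.05, 1 by DESeq2, 0 by the exact test). Of all tested loci 20.0% had an unadjusted p under 0.05, and DESeq2 called 9.71% of the loci it tested.

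The 3 loci of Pm-Myo9B, an unconventional myosin, were highest in replicate 3 of both groups. On scaffold 936 the level was 18.2, 20.4 and 39.1 CPM in Pm-Tbr MASO libraries and 27.5, 22.0 and 38.7 CPM in control MASO libraries. On scaffold 11794 it was 19.2, 20.5 and 33.8 CPM in Pm-Tbr MASO libraries and 27.2, 23.7 and 31.1 CPM in control MASO libraries. The groups overlap at all 3 loci, and the log2 fold changes lay between -0.20 and -0.16. Pm-Myo5a, the name of a vesicle carrier, had 11.6, 8.73 and 10.6 CPM in Pm-Tbr MASO libraries and 6.67, 6.46 and 6.95 CPM in control MASO libraries. Its groups did not overlap, and its value of 0.62 ± 0.25 did not pass (adjusted p = 0.222). Pm-Myo18a_1 was at -0.10 ± 0.21 and -0.06 ± 0.29, and neither locus passed.

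All 5 loci of the gamma-tubulin complex had negative values, with a median of -0.86 and 0 calls (3 at an unadjusted p under 0.05, 0 with the block, 1 by DESeq2 and 0 by the edgeR exact test). These 3 were 60.0% of the 5 loci, beside 20.0% of all tested loci. DESeq2 called 9.71% of all loci it tested. Pm-Tubgcp2 and Pm-Tubgcp3_1 are named for the subunits that build the small complex with gamma-tubulin, and Pm-Tubgcp6L for a subunit of the larger ring. Pm-Tubgcp2 had 4.37, 5.15 and 5.20 CPM in Pm-Tbr MASO libraries and 12.1, 9.36 and 7.35 CPM in control MASO libraries on scaffold 2358. On scaffold 5403 it had 8.87, 8.66 and 6.32 CPM in Pm-Tbr MASO libraries and 18.2, 13.6 and 11.3 CPM in control MASO libraries. These groups did not overlap, with log2 fold changes of -0.97 ± 0.29 and -0.86 ± 0.29 (adjusted p = 0.121 and 0.152). Only the first passed by DESeq2 (adjusted p = 0.0412).

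Pm-Tubgcp3_1 had 5.02, 5.45 and 10.1 CPM in Pm-Tbr MASO libraries and 9.63, 14.7 and 14.6 CPM in control MASO libraries on scaffold 22513. Pm-Tbr MASO replicate 3 stood above the lowest control MASO library there, so the groups overlap, and the values of the 2 loci of this name were -0.93 ± 0.35 and -0.83 ± 0.44 (adjusted p = 0.193 and 0.343). Pm-Tubgcp6L stood apart from the other 4 loci. It had 30.4, 47.2 and 56.7 CPM in Pm-Tbr MASO libraries and 53.8, 42.4 and 45.5 CPM in control MASO libraries, a log2 fold change of -0.08 ± 0.27, and its sign turned without Pm-Tbr MASO replicate 1 (0.13) or control MASO replicate 1 (0.028).

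The actin-nucleating proteins had values of either sign within 1 complex. Among the 14 loci of actin-related proteins and Arp2/3 subunits, 12 were positive, the median log2 fold change was 0.31 and 0 were called (4 at an unadjusted p under 0.05, or 28.6% beside 20.0% of all tested loci, and 0 with the block, by DESeq2 or by the edgeR exact test). These counts include Pm-Arp1/Centph and Pm-Arp8ph, names outside the Arp2/3 complex, which were positive at all their loci. Pm-Arp2, a core subunit that templates the new filament, was negative at both loci. On scaffold 592 it had 51.5, 52.4 and 69.8 CPM in Pm-Tbr MASO libraries and 81.5, 111 and 82.3 CPM in control MASO libraries. On scaffold 4121 it had 42.5, 39.0 and 42.4 CPM in Pm-Tbr MASO libraries and 62.1, 69.7 and 53.2 CPM in control MASO libraries. The groups did not overlap at either locus, but neither passed, with -0.66 ± 0.23 and -0.58 ± 0.21 on the log2 scale (adjusted p = 0.168 and 0.169).

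Its partner Pm-Arp3ph, the other core subunit, had 110, 102 and 148 CPM in Pm-Tbr MASO libraries and 108, 112 and 101 CPM in control MASO libraries on scaffold 13351, and 4 loci of that name lay between 0.17 and 0.35. The subunit name Pm-Arp2/3cs2 had 130, 146 and 149 CPM in Pm-Tbr MASO libraries and 107, 65.7 and 106 CPM in control MASO libraries. Pm-Arp2/3cs4 had 94.2, 93.2 and 87.0 CPM in Pm-Tbr MASO libraries and 75.3, 56.0 and 48.2 CPM in control MASO libraries on scaffold 1347. All Pm-Tbr MASO libraries stood above all control MASO libraries at both, where the log2 fold changes were 0.61 ± 0.24 and 0.61 ± 0.23 (adjusted p = 0.211 and 0.185). The second Pm-Arp2/3cs4 locus was at 0.58 ± 0.26 and also without overlap. Pm-Arp2/3cs3 was at 0.01 ± 0.26. The difference between Pm-Arp2 and the other subunits was not tested.

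**Figure D3:**
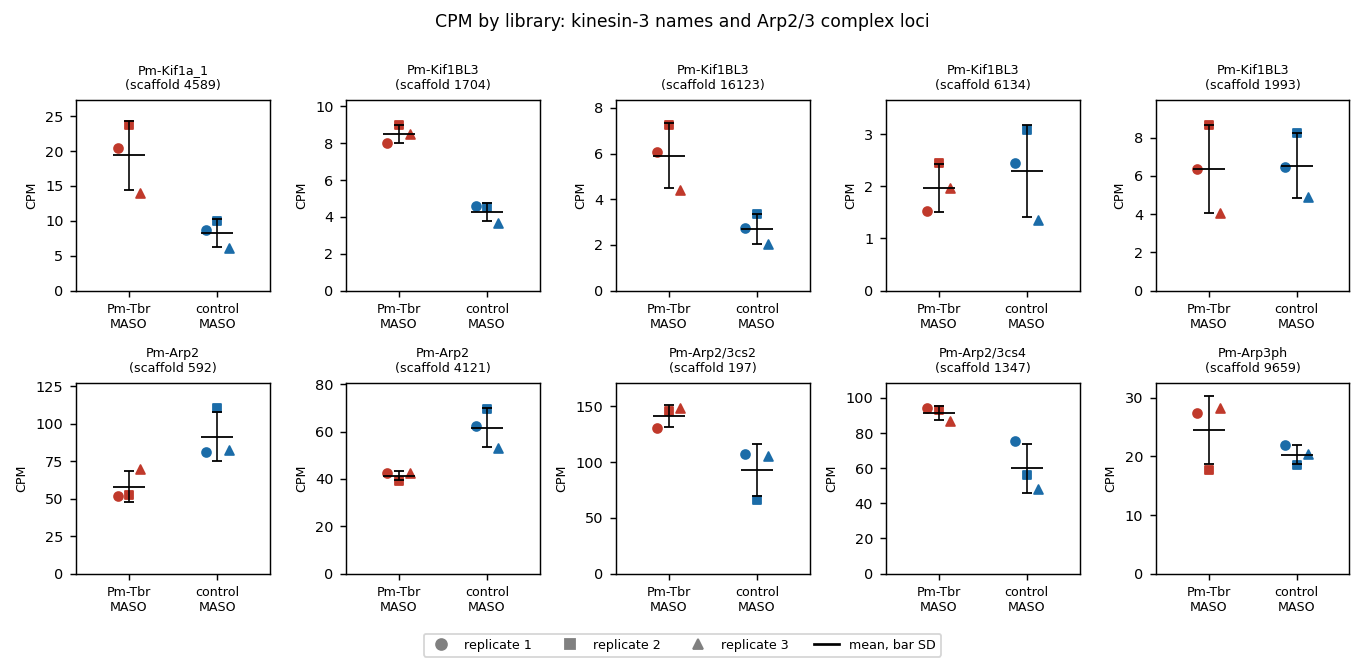
CPM (vertical axes, from 0) of the Pm-Kif1a_1 and Pm-Kif1BL3 loci and of 5 Arp2/3 complex loci in each Pm-Tbr MASO library (left in each panel) and control MASO library (right), with the mean and SD of 3 libraries. Pm-Kif1a_1 and Pm-Kif1BL3 on scaffolds 1704 and 16123 stand higher in every Pm-Tbr MASO library, Pm-Kif1BL3 on scaffolds 1993 and 6134 overlaps, and Pm-Arp2 lies lower, Pm-Arp2/3cs2 and Pm-Arp2/3cs4 lie higher, and Pm-Arp3ph overlaps.

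Pm-Arp1/Centph, named for the filament of dynactin that links cytoplasmic dynein to its cargo, had 36.3, 45.1 and 38.2 CPM in Pm-Tbr MASO libraries and 32.8, 34.9 and 32.8 CPM in control MASO libraries, at 0.25 ± 0.20. Its second locus, in the same gene model, was at 0.91 ± 0.55 with Pm-Tbr MASO replicate 2 highest, at 23.6 CPM. Pm-Arp8ph was at 0.80 ± 0.44 and 0.59 ± 0.39. No locus of either name passed.

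The crosslinking and capping names had values between -0.90 and 0.04, with 0 of 6 loci called (1 at an unadjusted p under 0.05, or 16.7% beside 20.0% of all tested loci, and 0 with the block, by DESeq2 or by the edgeR exact test). Pm-Actn, the alpha-actinin that bundles actin, had 151, 130 and 136 CPM in Pm-Tbr MASO libraries and 136, 120 and 148 CPM in control MASO libraries on scaffold 1286 (log2 fold change 0.04 ± 0.19). Its other locus was at 0.03 ± 0.23. Pm-Flnc, a filamin name, had 176, 125 and 154 CPM in Pm-Tbr MASO libraries and 161, 183 and 256 CPM in control MASO libraries, at -0.40 ± 0.25 with overlapping groups. Pm-CapZB_2, the beta subunit of the protein that caps the growing end, was at -0.25 ± 0.21 and -0.23 ± 0.25. Pm-Tpmtl_1, the methyltransferase name, was the 1 locus of these 6 under an unadjusted p of 0.05, with 2.51, 2.17 and 3.19 CPM in Pm-Tbr MASO libraries and 5.60, 4.77 and 4.25 CPM in control MASO libraries (-0.90 ± 0.32, adjusted p = 0.174).

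Pm-Actbp_limph, on scaffold 6842, had the highest log2 fold change of the 72 loci. It had 4.61, 5.92 and 2.40 CPM in Pm-Tbr MASO libraries and 1.73, 2.28 and 1.23 CPM in control MASO libraries, which do not overlap. Its log2 fold change was 1.30 ± 0.44 and did not pass (adjusted p = 0.155), but passed with the block (adjusted p = 0.0422). It did not pass by DESeq2 (adjusted p = 0.0692) or by the edgeR exact test (adjusted p = 0.111).

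Of the 39 names, 25 stood at 2 or more loci, 22 of them on several scaffolds, and loci of 1 name mostly gave the same fold change. The sign was the same at all loci for 21 of these names, and the range was under 0.25 on the log2 scale for 19. Its median over the 25 names was 0.113. The 4 names with mixed signs included Pm-Kif1BL3, Pm-Kif20AL and Pm-Kif6. Whether loci of 1 name are copies of a gene, alleles on separate scaffolds or pieces of 1 gene was not tested, and 5 gene models were split over 10 of the loci. Reads of near-identical copies may be shared or dropped, so loci of 1 name are not independent replicates, and a call at both Pm-Kif24 loci is not counted as 2 genes.

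The log2 ratios between libraries of the same number did not point the same way for every number. Their median over the 72 loci was -0.17, -0.16 and 0.073 for replicates 1, 2 and 3. For kinesins the medians were -0.30, -0.32 and 0.099, for myosins -0.38, -0.19 and -0.0066, for the gamma-tubulin complex -0.88, -0.80 and -0.52, and for actin-related proteins 0.065, 0.47 and 0.54. For the crosslinking and capping names they were 0.032, -0.072 and -0.39. The pair of replicate 3 thus had the highest median in 4 of these 5 roles and the lowest for the crosslinking and capping names, and the gamma-tubulin complex was negative in all 3 pairs.

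**Figure D4:**
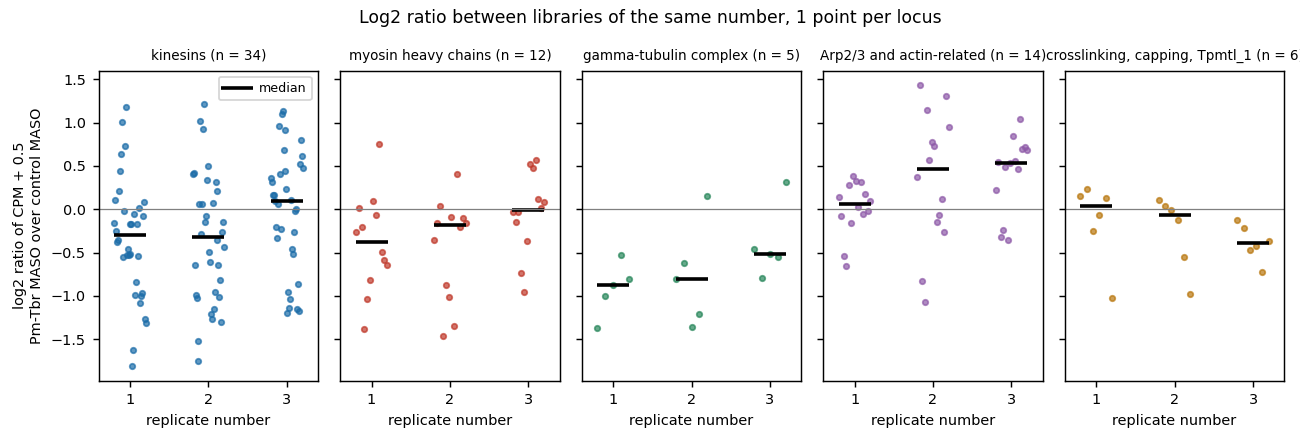
Log2 ratio of CPM + 0.5, Pm-Tbr MASO over control MASO, between libraries of the same replicate number (horizontal axis), with 1 point per locus, 1 panel per role and black bars for the medians. The kinesin medians are -0.30, -0.32 and 0.099, and the medians of the gamma-tubulin complex are negative for all 3 numbers.

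Genes that regulate actin gave calls in both directions. In a list of 55 actin regulator loci (searched by names such as formin, WASP, gelsolin, spectrin, vinculin and cortactin), 2 fell, 1 rose and 52 did not pass. Thus 5.45% were called, against 2.28% of all tested loci and 3.21% of those in the authors' deposited table. At an unadjusted p under 0.05 there were 9 (16.4%), 5 higher and 4 lower, against 20.0% of all tested loci and 24.3% of those in the authors' deposited table. Both falls were at Pm-CttnL, a name of cortactin, which holds Arp2/3 branches together. They averaged 13.6 ± 4.45 CPM in Pm-Tbr MASO embryos and 49.8 ± 5.21 CPM in control MASO embryos on scaffold 2409, and 6.86 ± 0.722 and 22.7 ± 5.70 CPM in the same order on scaffold 2569. The log2 fold changes were -1.88 ± 0.30 and -1.73 ± 0.27 (adjusted p = 0.0301 for both). Pm-Cttn, a cortactin name too, was at 0.87 ± 0.24 and 0.79 ± 0.26 and did not pass (adjusted p = 0.0975 and 0.144, and 0.0419 and 0.0640 with the block). Pm-Vcl, vinculin, which ties actin to adhesions, rose to 21.8 ± 3.22 CPM in Pm-Tbr MASO embryos, against 6.94 ± 2.43 CPM in control MASO embryos (log2 fold change 1.65 ± 0.31, adjusted p = 0.0393). One of the 3 calls was left without Pm-Tbr MASO replicate 3 or control MASO replicate 1, and 0 without any other library.

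Of 74 loci of microtubule-associated, tubulin-folding and cytoplasmic dynein names, 4 fell, 1 rose and 69 did not pass. Thus 6.76% were called, against 2.28% of all tested loci and 3.21% of those in the authors' deposited table. Of these calls, 3 falls and the rise were at loci named for subunits of the chaperonin that folds actin and tubulin, a group of 20 loci picked out after their values were seen. Pm-Cct2 averaged 30.5 ± 1.77 CPM in Pm-Tbr MASO embryos and 87.4 ± 8.58 CPM in control MASO embryos (log2 fold change -1.52 ± 0.20, adjusted p = 0.0224). The 2 Pm-Cct3 loci fell by 1.52 and 1.42 on the log2 scale. Pm-Tcp1, by its name also a subunit, rose by 1.12 ± 0.21 on the log2 scale at 1 locus (adjusted p = 0.0389) and did not pass at its others. Of the 20 loci, 17 had negative values, and the direction was thus not the same for all subunit names. The last fall was Pm-Vash2, an enzyme that removes the end tyrosine of alpha-tubulin, at -1.40 ± 0.23 (adjusted p = 0.0304). Of the 5 calls, 2 were left without Pm-Tbr MASO replicate 3, 1 without control MASO replicate 1 and 0 without any other library.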

How the data were processed

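Total RNA of pooled embryos was made into TruSeq libraries, per the labels' protocols. The authors deposited raw read counts per locus, 1 file per library with 80165 loci and 5 summary lines (49.0% to 50.6% of all lines), which stayed out of library sizes. The authors also deposited a table for 27630 loci with names, positions, log2 fold changes, log2 CPM, an F score and p-values with false discovery rates. The submitters' processing notes name TopHat2 2.0.12, Cufflinks 2.2.1, HTSeq 0.6.1p1 and edgeR 3.10.5, with build and strand setting not given in the sources used here, so overlapping loci on opposite strands may share reads.

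Here loci were filtered by filterByExpr (44120 left), scaled by TMM and tested with edgeR 4.0.16 in R 4.3.3 (quasi-likelihood, group only, Benjamini-Hochberg over all loci, threshold 0.05). The SE is the log2 fold change divided by the square root of F. Same-numbered libraries correlated in their deviations (0.53, 0.22 and 0.56, against -0.47 to -0.05 for unlike numbers). Deviations from a group mean cancel within a group, so positive values for like numbers make those for unlike numbers negative on balance. The pairing comes from these same counts, and blocked values are given where a call changes. DESeq2 1.42.0, other scalings and filters, the exact test and left-out libraries were alternatives. Members and gene lists were chosen with earlier results of these data known. Names that matched a list by letters only, such as helicases, were removed by name. Some names and 1 list are not reported here. Genes named are all called members and, per role, the 3 with the smallest p and the 2 with the highest mean CPM; the others were added by name group after their values were seen.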

Additional observations from a re-analysis of the deposited data

How the results depend on the processing

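The 2 calls of Pm-Kif24 held under RLE and upper-quartile scaling, both other filters, DESeq2, the exact test and the replicate block, and ended whenever 1 library was left out (fewer samples by construction). Counts of calls moved as follows; the cause was not tested. For DESeq2, the exact test, the replicate block and an adjusted p of 0.10, loci called higher were 2348, 2037, 2574 and 1661 of all loci (601 in the reported fit), and 3, 1, 4 and 2 of the 72 (0). Loci called lower were 1762, 1357, 1881 and 1283 of all loci (407), and 8, 7, 7 and 7 of the 72 (2). Cilium marker calls were 20, 16, 20 and 17 (5), and spindle list calls 3, 1, 2 and 1 (0). DESeq2 also gave 5 actin regulator, 10 microtubule list and 1 muscle marker calls. With loci above 2 CPM in at least 3 libraries, 624 of all loci and 3 of the 72 were lower, and the spindle and cilium lists had 1 and 10 calls. Pm-Kif4 on scaffold 17345 passed there (adjusted p = 0.0443 by the quasi-likelihood test). With 1 locus per name, 1 of the 39 was lower. Leaving out Pm-Tpmtl_1 and Pm-Arp8ph, chosen after seeing the data, moved no count.

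With each library left out, all loci called ranged from 0 to 338 higher and 0 to 141 lower, the 72 loci from 0 to 0 in both directions, the actin regulator list from 0 to 1, the microtubule list from 0 to 2, and the other lists from 0 to 0. The median of the 72 loci ranged from -0.23 to -0.10, and was -0.076 with 1 locus per name. Values near 0 changed sign without a call: without a filter Pm-Actn was at -0.011 and Pm-Kif26 at -0.017, and with libraries left out Pm-Actn ranged from -0.038 to 0.11, Pm-Kif26 from -0.14 to 0.18, Pm-Arp3ph from -0.017 to 0.27, Pm-Myo9B from -0.61 to 0.065 and Pm-Tubgcp6L from -0.29 to 0.13. Precision is lowest where counts are few: the 72 loci had 316 to 86225 counts over the 6 libraries, the fewest at Pm-Kif1BL3 on scaffold 6134 (316) and Pm-Kif13A2 on scaffold 8349 (344).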

Other observations

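Tubulins stood under other names in the authors' deposited table. Of 11 loci named Pm-Atub1, Pm-Btub1, Pm-Btub2 or Pm-Etub1 alone or with another tubulin name, 1 rose, 0 fell and 10 did not pass the edgeR quasi-likelihood test. Of all tested loci 1.36% were called higher and 0.922% lower. The abundant alpha tubulin locus on scaffold 175, named Pm-Atub1 and Pm-Tuba3c, averaged 569 ± 35.0 CPM in Pm-Tbr MASO embryos and 1311 ± 386 CPM in control MASO embryos (log2 fold change -1.21, adjusted p = 0.0550, and 0.0348 with the block). A beta tubulin locus, Pm-Btub1 on scaffold 4436, averaged 122 ± 28.3 CPM in Pm-Tbr MASO embryos and 450.3 ± 240.0 CPM in control MASO embryos (-1.89, adjusted p = 0.0689, and 0.0264 with the block). The locus that rose was Pm-Btub1 on scaffold 1412, with 8.44 ± 2.88 CPM in Pm-Tbr MASO embryos and 2.29 ± 0.435 CPM in control MASO embryos (1.88, adjusted p = 0.0416). Whether near-identical tubulin copies lost or exchanged reads was not tested, so the values of these loci are uncertain.

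Of 4 loci where only some names matched the rule, the one named Pm-Kif1a_1 with a second name of none, on scaffold 13053, averaged 14.8 ± 4.01 CPM in Pm-Tbr MASO embryos and 6.36 ± 1.46 CPM in control MASO embryos. Its log2 fold change was 1.22 ± 0.31, close to that of the Pm-Kif1a_1 locus on scaffold 4589 (adjusted p = 0.0825, and 0.0193 with the block). These loci were chosen after their values were seen.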
